A study of Mus musculus with 21 samples.

Results

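The genes of the eukaryotic translation initiation factors (eIFs) were examined in primary mouse B cell precursors. They were taken as all symbols that begin with Eif1 to Eif6, leaving out the eIF2 kinases (Eif2ak), with a mean of at least 50 counts over the 6 RNA-seq libraries. Of 24421 gene symbols 51 matched and 48 had enough counts. The remaining symbols, Eif3j1, Eif3j2 and Eif4e1b, had 0 counts in every library. All 48 genes were among the 12786 that passed the filter on low counts. They include the cap, scanning, tRNA and subunit joining factors together with relatives that repress or modify initiation, so the name eIF does not mean that each product promotes translation.

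The cells were bone marrow precursors of 53BP1-/- C57BL/6 mice, which lack a DNA repair factor, grown with interleukin-7 and taken 7 to 9 days after transduction. All 3 groups carry the 53BP1 deletion, and no group with intact 53BP1 was analysed here. EV cells received the empty retroviral vector MIGR1, BCR-ABL1 cells the vector with the fusion kinase (BCR-ABL1p210 MIGR1), and C-MYC cells the vector with the transcription factor (C-MYC MIGR1). Poly(A) RNA of 2 libraries per condition was sequenced, with 20687092 to 24095955 counts per library. The paper states that the RNA came from duplicate experiments. The labels do not say whether replicates came from separate animals, so that p-values measure the spread between these libraries only.

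Initiation begins when eIF2 brings the initiator tRNA to the small ribosomal subunit, which carries eIF1, eIF1A, eIF3 and eIF5. The cap-binding complex eIF4F, made of eIF4E, the helicase eIF4A and the scaffold eIF4G, recruits this subunit to the messenger RNA, and the 4E-binding proteins compete with eIF4G for eIF4E. After start codon recognition eIF2 is recharged with GTP by the 5 subunits of eIF2B, a step that the stress kinases of eIF2 block. MYC is a transcription factor known for raising genes of ribosome biogenesis and protein synthesis, and BCR-ABL1 signals through pathways that act on 4E-binding proteins by phosphorylation, which RNA levels do not show.

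Myc, which checks the C-MYC labels, had 3869 and 3277 counts in EV, 7239 and 8381 counts in BCR-ABL1, and 37920 and 27450 counts in C-MYC. The B cell precursor markers (9 genes, among them Pax5 and Vpreb1) summed to between 4769.7 and 5530 CPM (counts scaled to library size by TMM) in the libraries of EV and BCR-ABL1, and to 3232 and 2645 CPM in C-MYC. Of these, 3 were lower than EV in BCR-ABL1 (Il7r, Rag1 and Cd79b, by log2 fold changes of -1.82, -0.77 and -0.58) and 8 in C-MYC. The EV libraries also carried RNA of other cells. Their myeloid markers summed to 1736 and 1261 CPM against 157 to 343 CPM in the other libraries, their stromal markers to 103 and 157 CPM against 1.75 to 6.02 CPM, and their mast cell and basophil markers to 83.2 and 84.3 CPM against 1.70 to 4.67 CPM. Of the 8 T and NK cell markers 7 were lower in BCR-ABL1 (median log2 fold change -4.30) and 8 in C-MYC (median -4.74). Most of their sum in BCR-ABL1 and C-MYC was Lck, a kinase gene with 117 and 93.2 CPM in EV, 125 and 109 CPM in BCR-ABL1, and 56.1 and 49.1 CPM in C-MYC. The sums were 231 and 170 CPM, 129 and 115 CPM, and 59.2 and 52.6 CPM. Erythroid markers summed to at most 1.54 CPM, with 5 of 7 at 0. These markers move with each difference from EV below, and their part in it was not tested. In bulk RNA, fewer cells of a type and less RNA per cell cannot be told apart.

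The 48 genes took a larger share of the RNA in both oncogene conditions (plot of the share of counts). They received 1.40% and 1.45% of all counts in EV, 1.60% and 1.63% of those in BCR-ABL1, and 2.02% and 1.99% of those in C-MYC. The condition means were 1.42% ± 0.038, 1.62% ± 0.028 and 2.01% ± 0.024 (SD, n = 2 each). The libraries of the 3 conditions did not overlap, with EV lowest and C-MYC highest.

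**Figure D1:**
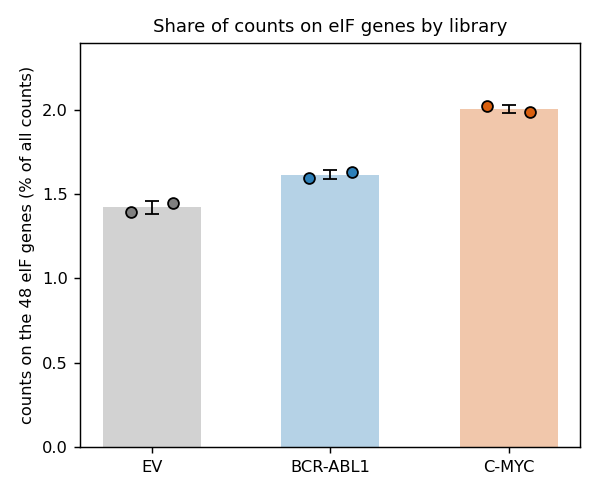
Share of all counts that fell on the 48 eIF genes (vertical axis, % of all counts) in each condition. Bars are means, error bars the SD of 2 libraries and points the single libraries, without overlap between the conditions (EV mean 1.42%, BCR-ABL1 mean 1.62%, C-MYC mean 2.01%).

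With C-MYC, 34 of the 48 genes rose above EV and 2 fell (Eif4e3 and Eif2s3y), called by edgeR's quasi-likelihood test with an adjusted p below 0.05. Among all genes tested, 18.6% rose and 24.5% fell. The median log2 fold change of the 48 genes was 0.61, a 1.53-fold rise, against a median of -0.08 over all genes tested. Both C-MYC libraries lay above both EV libraries for 39 of the 48 genes, which was so for 31.5% of all genes. Leaving out single libraries left 29 to 35 genes called, and 28 of the 34 rises kept their call under all 14 alternatives of processing. The others were Eif1ad, Eif3e, Eif4e2, Eif4g2, Eif5a2 and Eif5b, of which Eif4g2 also changed its direction.

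Against EV, fewer of these genes passed the threshold in BCR-ABL1. There were 10 higher (Eif5a2, Eif5a, Eif2s1, Eif4e, Eif4g1, Eif2s3x, Eif3b, Eif3i, Eif1ax and Eif4a1) and 1 lower (Eif4e3), or 11 of 48, where 5.08% of all genes tested were higher and 17.0% were called in either direction. The median log2 fold change was 0.24 against 0.001 over all genes, and both BCR-ABL1 libraries were above both EV libraries for 37 of the 48 genes, against 29.2% of all genes. These calls rest on both BCR-ABL1 libraries. With either of them left out the calls were lost, and fewer of all genes were called as well. The median log2 fold change of the eIF genes stayed at 0.24. The count was also lower without replicate 1 of EV or either library of C-MYC. DESeq2's test called 18, beside 18.6% of all genes. With the replicate number as a block 18 were called as well, beside 25.2% of all genes. The 7 additional genes were Eif1a, Eif2b3, Eif2s2, Eif3d, Eif3e, Eif3l and Eif4b. All 11 genes kept their direction under every alternative.

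Set directly against each other, BCR-ABL1 and C-MYC differed for 26 of the 48 genes, each lower in BCR-ABL1. By the same test 11.5% of all genes were lower and 11.9% higher. In the other direction 0 eIF genes were called by edgeR and by DESeq2, and 2 were higher in BCR-ABL1 at an unadjusted p below 0.05 in edgeR (Eif2s3y and Eif4e3). One of this pair was called higher in BCR-ABL1 in 4 of the 14 alternatives, namely with only the 4 libraries compared or without either EV library (Eif4e3), and with the replicate block (Eif2s3y). The median log2 difference was -0.38. This count also rests on single libraries. With 1 library of BCR-ABL1 or C-MYC left out, fewer were called among the eIF genes and over all genes alike. With any single library left out, the median log2 difference of the eIF genes stayed between -0.41 and -0.35. The direction of all 26 genes was kept under every alternative. The B cell precursor markers were lower in C-MYC than in BCR-ABL1, as given above, and their part in this comparison was not tested. In 31 of the 48 genes all 6 libraries were in the order EV, BCR-ABL1, C-MYC from low to high, an order found in 13.3% of all genes, and 1 gene, Eif4e3, had the reverse order, found in 11.1% of all genes.

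**Figure D2:**
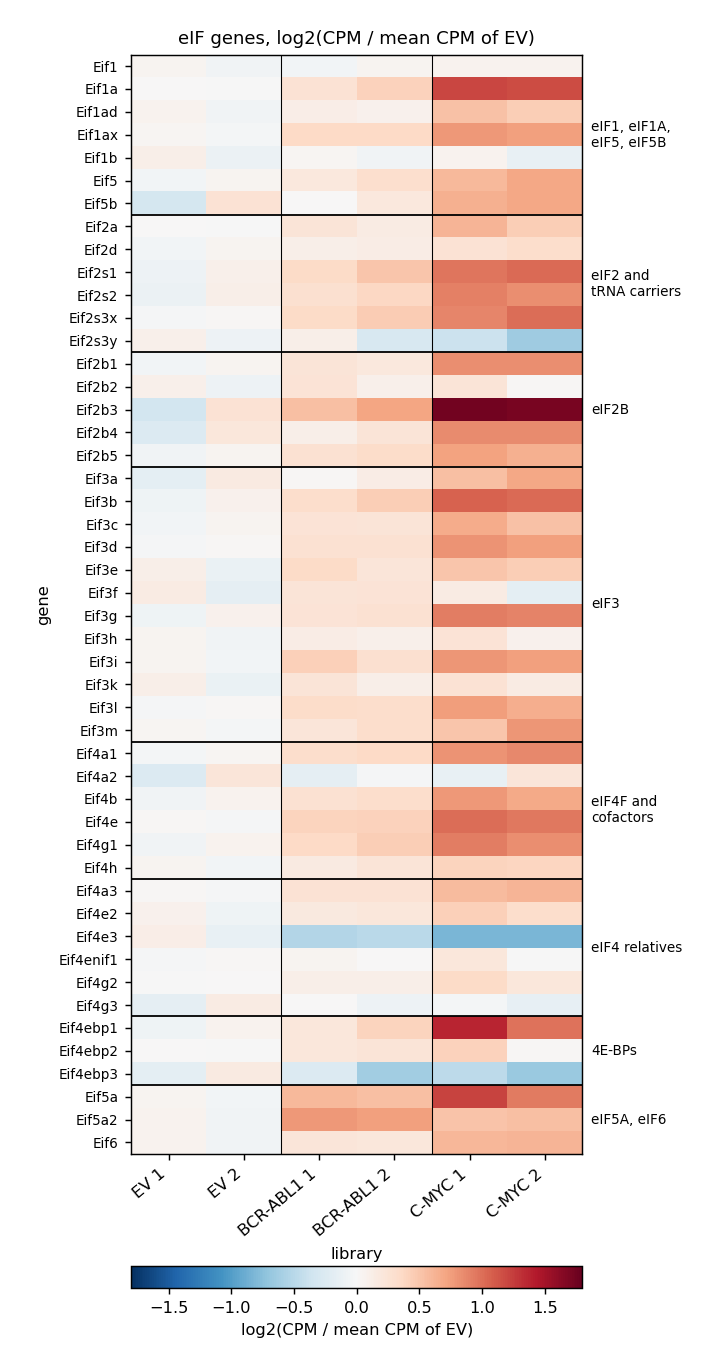
Level of each of the 48 eIF genes (rows, grouped by role) in each library (columns), as the log2 ratio of its CPM to the mean CPM of EV. Red is above EV and blue below, and most rows darken from EV over BCR-ABL1 to C-MYC, with Eif4e3, Eif4ebp3 and Eif2s3y as the blue rows.

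Of the 6 genes of the cap-binding complex eIF4F and its cofactors, 5 rose in C-MYC and 3 in BCR-ABL1. Over all genes tested 18.6% and 5.08% rose. Eif4e, the cap-binding subunit, had 141 and 138 CPM in EV, 183 and 187 CPM in BCR-ABL1, and 279 and 269 CPM in C-MYC. Its libraries are separated by condition, and it rose by a log2 fold change of 0.98 in C-MYC (SE 0.09, adjusted p = 0.000407) and 0.41 in BCR-ABL1 (SE 0.09, adjusted p = 0.023). Eif4g1, the main scaffold, went from 714 and 780 CPM in EV to 961 and 1011 CPM in BCR-ABL1 and 1418 and 1334 CPM in C-MYC, a log2 fold change of 0.40 (adjusted p = 0.0254) and 0.88 (adjusted p = 0.000524). Eif4a1, the main helicase, was at 797 and 835 CPM in EV, 1019 and 1049 CPM in BCR-ABL1, and 1425 and 1490 CPM in C-MYC. Its log2 fold changes were 0.34 and 0.84, again without overlap between any of the conditions. A share of 28.4% of the 50-base windows of its transcripts also occurs in other genes, mostly the pseudogene Eif4a-ps4, so that its counts may be split. Eif4b and Eif4h, cofactors of the helicase, rose in C-MYC by 0.73 and 0.39 on the log2 scale and were 0.30 and 0.20 above EV in BCR-ABL1, short of the threshold. Eif4a2, the close relative of Eif4a1, had 181 and 249 CPM in EV, 193 and 212 CPM in BCR-ABL1, and 196 and 250 CPM in C-MYC. These ranges overlap, and its log2 fold change in C-MYC was 0.05 (SE 0.18).

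The proportions of the eIF4F paralogs differed between conditions (plot of paralog levels), which is given as a description without a test. Per kilobase of annotated exon, Eif4a1 was 5.42 and 4.13 times the level of Eif4a2 in EV, 6.50 and 6.09 times in BCR-ABL1, and 8.97 and 7.33 times in C-MYC. In the same way Eif4g1 was 5.03 and 4.47 times the level of Eif4g3 in EV, 6.04 and 6.84 times in BCR-ABL1, and 9.21 and 9.32 times in C-MYC. Eif4g3 itself did not pass the test in either condition, with log2 fold changes of -0.04 and -0.09. Among the 3 subunits that rose in both conditions the proportions differed less. Eif4a1 stood at 8.13 ± 0.39 times Eif4e in EV cells, 7.75 ± 0.07 times with BCR-ABL1 and 7.38 ± 0.43 times with C-MYC. For Eif4g1 over Eif4e these ratios of CPM per kb were 4.42 ± 0.34, 4.39 ± 0.11 and 4.13 ± 0.07 (SD, n = 2).

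Eif4e3, a cap-binding relative of Eif4e, was the member that fell in both conditions. It had 78.2 and 66.0 CPM in EV, 50.2 and 51.4 CPM in BCR-ABL1, and 41.0 and 40.8 CPM in C-MYC. The conditions did not overlap, and the log2 fold change was -0.51 in BCR-ABL1 (SE 0.13, adjusted p = 0.0332) and -0.82 in C-MYC (SE 0.13, adjusted p = 0.0021). Per kilobase, the ratio of Eif4e to Eif4e3 was 0.75 and 0.87 for the EV libraries, 1.53 and 1.52 with BCR-ABL1, and 2.85 and 2.76 with C-MYC. With FPKM it was 1.63 and 1.90, 3.38 and 3.25, and 6.31 and 5.99, so which gene was higher in EV depends on the measure, while both measures have the lowest ratios in EV and the highest in C-MYC. Markers of myeloid, stromal, mast and T cells were likewise highest in EV, and their part in the fall of Eif4e3 was not tested. Eif4e2, a cap-binding relative that serves in repression, rose in C-MYC by 0.38 on the log2 scale (adjusted p = 0.0241), a call kept in 7 of 14 alternatives. Eif4g2, which lacks the eIF4E-binding part of eIF4G, had the highest CPM of the family in EV at 1807 and 1810, with 1945 and 1945 CPM in BCR-ABL1 and 2305 and 2076 CPM in C-MYC. Its log2 fold change of 0.28 in C-MYC (adjusted p = 0.0402) was kept in 5 of 14 alternatives, and with FPKM values it was as low as -0.13. Eif4a3, the helicase of the exon junction complex, rose by 0.60 in C-MYC, and Eif4enif1, the transporter of eIF4E, was at 0.11 without passing the test.

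Of the genes of the 4E-binding proteins, which hold eIF4E away from eIF4G, 1 of 3 rose in C-MYC, where 18.6% of all genes tested rose. Eif4ebp1 had 61.0 and 67.4 CPM in EV, 73.8 and 85.2 CPM in BCR-ABL1, and 166 and 127 CPM in C-MYC. Its log2 fold change was 1.19 in C-MYC (SE 0.16, adjusted p = 0.00107) and 0.31 in BCR-ABL1 (SE 0.16, adjusted p = 0.226). The lower C-MYC library still stood above all libraries of the other conditions. Eif4ebp2 was at 0.23 in C-MYC (adjusted p = 0.212), and Eif4ebp3, which is low, at -0.56 (adjusted p = 0.0894). Eif4ebp3 shares 65.5% of its windows with the gene AC115631.1. Per kilobase, the ratio of Eif4ebp1 to Eif4ebp2 was 0.97 ± 0.08 in EV cells, 1.03 ± 0.10 with BCR-ABL1 and 1.88 ± 0.01 with C-MYC (SD, n = 2). With FPKM these ratios were 0.73 ± 0.04, 0.77 ± 0.08 and 1.40 ± 0.0009. The summed level of the 3 genes was 2.95 and 3.25 times that of Eif4e in EV, 2.59 and 2.65 times in BCR-ABL1, and 2.69 and 2.15 times in C-MYC.

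**Figure D3:**
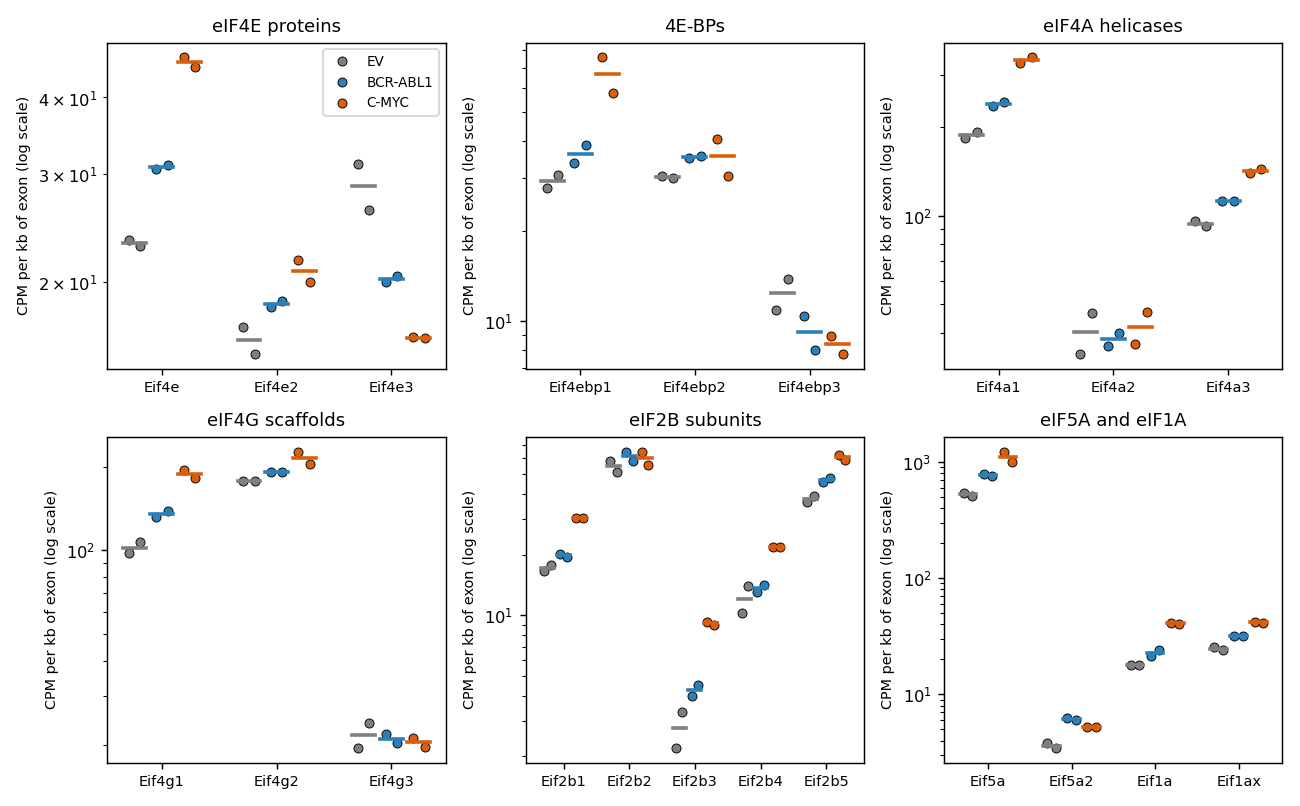
CPM per kilobase of annotated exon (vertical axes, log scale) of related eIF genes in EV, BCR-ABL1 and C-MYC. Points are libraries and lines the mean of 2, and Eif4e, Eif4ebp1, Eif4a1, Eif4g1 and Eif2b3 climb from EV to C-MYC while Eif4e3 descends and Eif4a2 and Eif4g3 overlap between conditions.

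In C-MYC, the genes of the complex that delivers the initiator tRNA rose, apart from the Y-linked copy. Eif2s1, the subunit that the stress kinases phosphorylate, had 170 and 192 CPM in EV, 230 and 255 CPM in BCR-ABL1, and 351 and 366 CPM in C-MYC. It rose by a log2 fold change of 0.42 in BCR-ABL1 (adjusted p = 0.0357) and 0.99 in C-MYC (adjusted p = 0.000576). Eif2s2, the beta subunit, had log2 fold changes of 0.33 (adjusted p = 0.0727) and 0.87 (adjusted p = 0.000816). Eif2s3x, the gamma subunit on the X chromosome, had 102 and 104 CPM in EV, 131 and 141 CPM in BCR-ABL1, and 190 and 207 CPM in C-MYC, with log2 fold changes of 0.40 and 0.95. The pseudogene Gm2223 holds 34.6% of its windows. The BCR-ABL1 calls of Eif2s1 and Eif2s3x were each kept in 5 of 14 alternatives. Eif2a, an alternative tRNA carrier, rose by 0.53 in C-MYC, and Eif2d, another, was at 0.29 (adjusted p = 0.0793).

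Eif2s3y, the copy on the Y chromosome, had 58.0 and 51.1 CPM in EV, 58.7 and 44.7 CPM in BCR-ABL1, and 41.6 and 35.1 CPM in C-MYC. Its log2 fold change was -0.51 in C-MYC (SE 0.17, adjusted p = 0.0435), a call kept in 6 of 14 alternatives and lost with DESeq2's test. The other Y-linked genes Ddx3y, Kdm5d and Uty had log2 fold changes of -0.21, -0.59 and -0.62 in C-MYC, none of them called. Replicate 1 was above replicate 2 in every condition for Eif2s3y, Ddx3y and Uty, and for Kdm5d in BCR-ABL1 and C-MYC but not in EV (20.1 and 23.0 CPM). Xist, the RNA of the inactive X chromosome, was higher in replicate 2, at 298 and 491 CPM in EV, 317 and 433 CPM in BCR-ABL1, and 255 and 542 CPM in C-MYC. Xist and the Y-linked genes were thus both present in every library, and for the Y-linked copy a change in expression and a different mixture of male and female cells cannot be told apart.

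The exchange factor eIF2B held the largest rise of the family. Eif2b3, its gamma subunit, had 14.4 and 21.6 CPM in EV, 26.1 and 29.5 CPM in BCR-ABL1, and 60.2 and 58.7 CPM in C-MYC. The conditions did not overlap, and the log2 fold change was 1.72 in C-MYC (SE 0.20, adjusted p = 0.000653), a 3.30-fold rise, and 0.63 in BCR-ABL1 (SE 0.20, adjusted p = 0.0696). Eif2b1, Eif2b4 and Eif2b5 rose in C-MYC by 0.83, 0.85 and 0.68 on the log2 scale. Eif2b2, the beta subunit, had 110 and 96.7 CPM in EV and 122 and 105 CPM in C-MYC, which overlap (log2 fold change 0.13, adjusted p = 0.428). Per kilobase, Eif2b3 was at 2.76 ± 0.79 CPM per kb in EV, the lowest mean of the 48 genes on this scale (by FPKM the lowest was Eif5a2), and reached 9.12 ± 0.17 CPM per kb in C-MYC. The highest eIF2B subunit was at 26.4 and 15.5 times the level of the lowest in EV, 16.2 and 12.9 times in BCR-ABL1, and 6.99 and 6.56 times in C-MYC. With FPKM this was 19.7 and 11.3 times in EV, 11.8 and 9.37 times in BCR-ABL1, and 5.10 and 4.53 times in C-MYC. Against BCR-ABL1, 4 of the 5 subunits were higher in C-MYC, where 11.5% of all genes tested were lower in BCR-ABL1. Eif2b3 had a log2 fold change of -1.10 for BCR-ABL1 against C-MYC (adjusted p = 0.00758). These calls were kept in 11 of 14 alternatives for Eif2b3, 10 for Eif2b1, 10 for Eif2b4 and 8 for Eif2b5.

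Of the 12 genes of eIF3, the large scaffold on the small subunit, 9 rose in C-MYC and 2 (Eif3b and Eif3i) in BCR-ABL1. The shares over all genes tested were 18.6% and 5.08%. Eif3b, a core subunit, had 457 and 510 CPM in EV, 604 and 658 CPM in BCR-ABL1, and 1005 and 984 CPM in C-MYC. It rose by 1.04 on the log2 scale in C-MYC (SE 0.10, adjusted p = 0.000405) and by 0.38 in BCR-ABL1 (SE 0.10, adjusted p = 0.0367). Eif3g, which sits with Eif3b and Eif3i in the mobile part of the complex, rose by 0.90 in C-MYC from 127 and 141 CPM in EV to 253 and 248 CPM. Eif3i rose by 0.77 in C-MYC and 0.37 in BCR-ABL1. The BCR-ABL1 calls of Eif3b and Eif3i were each kept in 5 of 14 alternatives. The smallest differences from EV in C-MYC were in Eif3f, Eif3h and Eif3k. Eif3f had 515 and 419 CPM in EV, 551 and 555 CPM in BCR-ABL1, and 515 and 412 CPM in C-MYC, and its log2 fold change in C-MYC was -0.01 (SE 0.14). Eif3h and Eif3k were at 0.16 and 0.21 in C-MYC. Eif3m, which lies beside Eif3f and Eif3h in the complex, passed the test (0.65, adjusted p = 0.00444). Eif3a, Eif3c, Eif3d, Eif3e and Eif3l rose in C-MYC by between 0.47 (Eif3e) and 0.77 (Eif3d).

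Among the factors that select the start codon, the eIF1A genes rose and the eIF1 genes did not pass the test. Eif1a had 75.2 and 74.0 CPM in EV, 89.6 and 99.4 CPM in BCR-ABL1, and 171 and 169 CPM in C-MYC. It had a log2 fold change of 1.19 in C-MYC (SE 0.11, adjusted p = 0.00035) and 0.34 in BCR-ABL1 (adjusted p = 0.0658). The difference between BCR-ABL1 and C-MYC, -0.85, was called under all 14 alternatives, the only one of the 26 for which this was so. Eif1ax, the X-linked gene of the same factor, rose by 0.36 in BCR-ABL1 (adjusted p = 0.0395, kept in 5 of 14 alternatives) and 0.76 in C-MYC. Eif1a was at 0.72 ± 0.02 of the level of Eif1ax per kilobase in EV cells, 0.72 ± 0.05 with BCR-ABL1 and 0.98 ± 0.004 with C-MYC (SD, n = 2). By FPKM this ratio was 0.19 ± 0.005, 0.18 ± 0.01 and 0.25 ± 0.007, so how near the levels of both genes are depends on the measure. Eif1, which guards the start codon, had 443 and 410 CPM in EV, 411 and 442 CPM in BCR-ABL1, and 444 and 446 CPM in C-MYC, and Eif1b was at -0.03 in C-MYC. Eif5, the GTPase activator of eIF2, and Eif5b, which joins the subunits, rose in C-MYC by 0.64 and 0.66. Eif1ad, an eIF1A-like gene, rose by 0.49.

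All 3 genes of eIF5A and eIF6 rose in C-MYC, and both eIF5A genes rose in BCR-ABL1. Over all genes tested 18.6% and 5.08% rose. Eif5a, which carries the amino acid hypusine and helps ribosomes elongate and terminate, had 1289 and 1200 CPM in EV, 1864 and 1808 CPM in BCR-ABL1, and 2899 and 2370 CPM in C-MYC. It had log2 fold changes of 0.56 in BCR-ABL1 (SE 0.11, adjusted p = 0.0146) and 1.08 in C-MYC (SE 0.12, adjusted p = 0.000506). Per kilobase it was the highest of the 48 genes in each condition, at 523 ± 26.5, 772 ± 16.5 and 1108 ± 157 CPM per kb (SD, n = 2). Eif5a2, its weakly expressed paralog, had 19.0 and 17.4 CPM in EV, 31.3 and 30.4 CPM in BCR-ABL1, and 26.1 and 26.6 CPM in C-MYC. Its log2 fold change of 0.76 was the largest of the family in BCR-ABL1 (SE 0.14, adjusted p = 0.00901), above the 0.53 in C-MYC, although the direct difference of 0.23 was not called (adjusted p = 0.257). Eif6, which keeps the large ribosomal subunit apart, rose by 0.60 in C-MYC and was at 0.21 in BCR-ABL1.

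**Figure D4:**
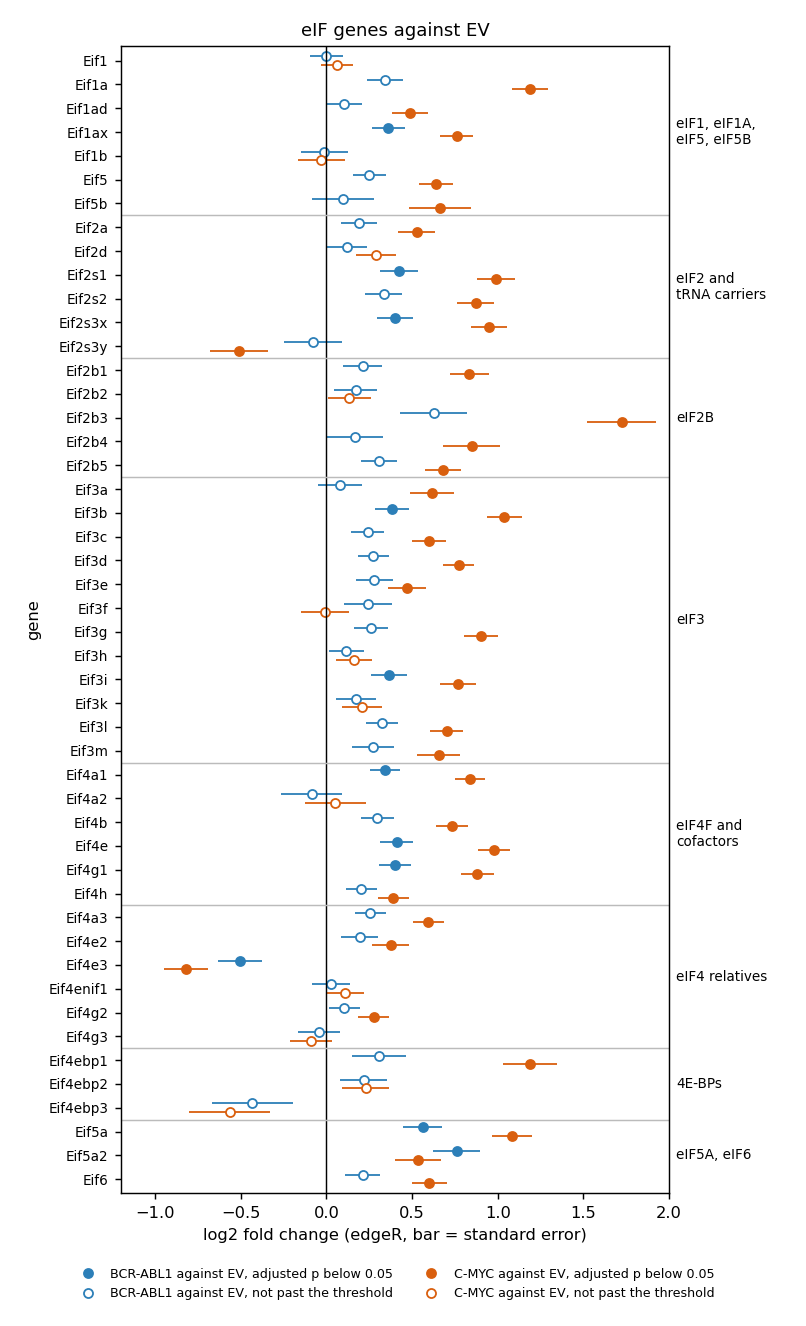
Log2 fold change against EV (horizontal axis, bars are standard errors from edgeR) of the 48 eIF genes, grouped by role, for BCR-ABL1 (blue) and C-MYC (orange). Filled points passed an adjusted p of 0.05, which 36 genes did in C-MYC and 11 in BCR-ABL1.

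The E-box CACGTG, the letters that MYC with its partner MAX is known to prefer, was searched in the promoters of the family. The window ran from 250 bases before to 50 after each annotated start (RefSeq, GRCm38.p6). Since the motif is its own reverse complement, 1 search covers both strands. Promoters were found for 38 of the 48 genes, and 10 of them (26.3%) hold the motif: Eif1b, Eif3a, Eif3f, Eif3k, Eif4a1, Eif4e, Eif4g1, Eif4h, Eif5a and Eif5a2. The share was 8.09% of 27025 genes and 12.3% of the 8224 genes that averaged 50 counts or more. The motif was in 7 of the 27 promoters (25.9%) of genes that rose in C-MYC and in 3 of the 11 promoters (27.3%) of the other members. Promoters were not found for Eif1a, Eif2b3, Eif3e, Eif3h, Eif3i, Eif4e3, Eif4ebp1, Eif4ebp3, Eif4g2 and Eif6. The shares thus leave out the largest rises of the family in C-MYC (Eif2b3, Eif4ebp1 and Eif1a). A gene counted when any of its starts had the motif, and for Eif4e this was 1 of 2 starts and for Eif5a 3 of 6. MYC binding to these windows was not analysed here.

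Promoter pieces outside annotated exons are shown for genes of the cap complex and eIF5A that rose in both conditions, and for Eif3f, which holds the motif and had the log2 fold change nearest to 0 in C-MYC of all eIF3 genes. Capitals mark the E-box and the pieces run 5′ to 3′ on the strand of the gene (RefSeq starts, GRCm38.p6).
Eif4a1, chr11:69672424-69672673, - strand: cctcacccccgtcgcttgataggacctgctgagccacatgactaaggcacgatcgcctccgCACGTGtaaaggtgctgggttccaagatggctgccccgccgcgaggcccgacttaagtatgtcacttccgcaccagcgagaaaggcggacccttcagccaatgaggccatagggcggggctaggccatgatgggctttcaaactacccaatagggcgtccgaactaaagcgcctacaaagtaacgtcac
Eif4g1, chr16:20672477-20672722, + strand: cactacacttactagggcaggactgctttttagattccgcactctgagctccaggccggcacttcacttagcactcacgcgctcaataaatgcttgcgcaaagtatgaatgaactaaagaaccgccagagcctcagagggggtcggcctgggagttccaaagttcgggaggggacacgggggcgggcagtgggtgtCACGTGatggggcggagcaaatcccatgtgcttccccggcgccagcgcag
Eif5a, chr11:69921387-69921636, - strand: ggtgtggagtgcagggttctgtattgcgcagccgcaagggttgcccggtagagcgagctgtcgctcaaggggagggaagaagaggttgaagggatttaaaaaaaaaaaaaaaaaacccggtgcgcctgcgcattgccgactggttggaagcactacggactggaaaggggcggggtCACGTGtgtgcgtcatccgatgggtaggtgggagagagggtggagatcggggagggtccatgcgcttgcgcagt
Eif5a2, chr3:28781109-28781275, + strand: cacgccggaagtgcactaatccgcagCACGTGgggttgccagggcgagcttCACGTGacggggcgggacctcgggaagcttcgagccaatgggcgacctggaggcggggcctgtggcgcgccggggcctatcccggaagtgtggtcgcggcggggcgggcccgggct
Eif3f, chr7:108934165-108934414, + strand: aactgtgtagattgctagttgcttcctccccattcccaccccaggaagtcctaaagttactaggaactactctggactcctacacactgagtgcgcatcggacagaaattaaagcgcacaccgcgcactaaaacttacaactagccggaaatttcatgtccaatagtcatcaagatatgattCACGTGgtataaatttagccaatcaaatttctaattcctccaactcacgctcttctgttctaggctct
The E-box begins 189 bases before the start in Eif4a1, 54 in Eif4g1, 74 in Eif5a and 68 in Eif3f. Eif5a2 has it at 142 and 117 bases before the start. The window of Eif4g1 holds a further E-box 15 bases after the start, outside the piece shown. The Eif5a piece belongs to 1 of the starts with the motif. The GC content was 43.6% for the Eif3f piece and between 58% and 73.1% for the others.

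The other translation genes were compared in the same fit, as lists of 44 genes. In C-MYC 26 were higher and 3 lower than in EV (median log2 fold change 0.54), where 18.6% of all genes were higher and 24.5% lower. In BCR-ABL1 6 were higher and 0 lower (median 0.23), where 5.08% of all genes were higher and 17.0% were called in either direction. By DESeq2's test 0 were lower in BCR-ABL1 as well, and 1 was lower at an unadjusted p below 0.05 in edgeR. With no filter on low counts, with the replicate block and without either EV library, 1 was called lower. The BCR-ABL1 count was 12 with the replicate block, where 25.2% of all genes were called. It was lower without either BCR-ABL1 library, and fewer were called over all genes as well. Against C-MYC, 16 were lower and 3 higher in BCR-ABL1, where 11.5% of all genes were lower and 11.9% higher. With 1 library of BCR-ABL1 or C-MYC left out, fewer were called here, among these genes and over all genes alike. With any single library left out, the median log2 difference of these genes was between -0.41 and -0.30.

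Of the 8 termination and recycling genes 7 rose in C-MYC and 3 in BCR-ABL1, where 18.6% and 5.08% of all genes tested rose. Gspt1, the GTPase of termination, had 205 and 257 CPM in EV, 310 and 356 CPM in BCR-ABL1, and 498 and 484 CPM in C-MYC. Etf1, the factor that reads stop codons, rose by 0.36 and 0.89 on the log2 scale in BCR-ABL1 and C-MYC, and Abce1, which splits ribosomes, by 0.36 and 0.94. The elongation list holds 8 genes with Eef symbols, not all of which encode elongation factors. Of these 7 rose in C-MYC, with Eef1e1 at 1.23, Eef1g at 1.09 and Eef1d at 1.00. The remaining one, Eef2k, the kinase that inhibits elongation factor 2, fell by 0.59. Eef1g also rose in BCR-ABL1, by 0.60 (adjusted p = 0.00398).

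Among 11 partners at the cap and the poly(A) tail, Pabpc4, a poly(A)-binding protein, rose in both conditions, from 277 and 297 CPM in EV to 443 and 437 CPM in BCR-ABL1 and 731 and 681 CPM in C-MYC. Pdcd4, which inhibits the helicase eIF4A, differed between the oncogene conditions. It had 113 and 100 CPM in EV, 158 and 136 CPM in BCR-ABL1, and 77.8 and 87.9 CPM in C-MYC. It rose by 0.47 in BCR-ABL1 (SE 0.13, adjusted p = 0.0451), and the difference between BCR-ABL1 and C-MYC was 0.83 (adjusted p = 0.00508), while C-MYC against EV gave -0.36 (adjusted p = 0.0558). Mknk1, a kinase of eIF4E, fell by 0.44 in C-MYC, and Larp1, which binds messages of ribosomal proteins, rose by 0.83. Of the 6 genes of eIF2 kinases and phosphatase subunits 1 was called in C-MYC, as lower, where 24.5% of all genes tested were lower. Eif2ak3, the eIF2 kinase of endoplasmic reticulum stress, had 214 and 133 CPM in EV, 211 and 186 CPM in BCR-ABL1, and 105 and 93.4 CPM in C-MYC, a log2 fold change of -0.80 in C-MYC (SE 0.21, adjusted p = 0.0172). Eif2ak1, Eif2ak2 and Eif2ak4 were not called in either condition.

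Dohh, the hydroxylase that completes hypusine on eIF5A, rose by 0.76 in C-MYC (adjusted p = 0.00221), and Dhps, which acts before it, was at 0.29 (adjusted p = 0.103). Of the 9 mitochondrial translation factors 6 rose in C-MYC, where 18.6% of all genes tested rose. In BCR-ABL1 the smallest adjusted p of this list was 0.13 (Gfm1). Tsfm and Tufm, the elongation factors Ts and Tu of mitochondria, rose by 1.12 and 0.98, and Gfm1 by 0.98. The initiation factors of mitochondria, Mtif2 and Mtif3, were at 0.37 and -0.14 and did not pass the test.

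The positions of some of the genes described above, from GENCODE M21 on GRCm38, are chromosome 4 from 117019402 to 117087306 for Eif2b3, chromosome 8 from 27260329 to 27276674 for Eif4ebp1, chromosome 11 from 69916714 to 69921958 for Eif5a, chromosome 5 from 140419328 to 140443360 for Eif3b, chromosome 12 from 78861819 to 78887010 for Eif2s1, chromosome 3 from 138526179 to 138559696 for Eif4e, and chromosome 6 from 99625135 to 99666771 for Eif4e3. Counts are per gene and do not tell exons apart. FPKM values were compared with counts per kilobase, relative to the median over all genes averaging at least 50 counts and annotated once. They differed by more than 2-fold for Eif1ax, Eif3e, Eif3i (2.03-fold) and Eif4ebp3, so levels per length depend on the measure. They are given from counts unless FPKM is named.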

How the data were processed

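RNA-seq of 53BP1-/- B cell precursors was analysed for EV, BCR-ABL1 and C-MYC (2 libraries each), grouped by the sample labels. The authors aligned reads to GRCm38/mm10 with STAR 2.5.0 and UCSC known genes and deposited unnormalized counts per gene symbol. The counting program, strand setting and treatment of reads with several matches are not given in the sources used here, so paralogs and overlapping genes are uncertain. FPKM per symbol, also deposited, came from StringTie 1.3.0. It was used for genes at 0 counts and as an alternative. ChIP-seq tracks were not analysed here.

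Counts were fitted with edgeR 4.0.16 in R 4.3.3 (filterByExpr, 12786 of 24421 genes; TMM; all 6 libraries in 1 model, no covariate; quasi-likelihood test, 2-sided, Benjamini-Hochberg over all genes tested, threshold 0.05). SE is the absolute log2 fold change divided by the square root of F. The common biological coefficient of variation was 0.151, so the spread between libraries, not depth, limits precision. Levels per kilobase use the union of GENCODE M21 exons. Promoters were taken from RefSeq. The script was tested on simulated counts.

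Alternatives were DESeq2 1.42.0, limma 3.58.1 on log2 FPKM with a pseudocount of 1 or 0.1, DESeq2 size factors, other filters, 4 libraries only, a replicate term, and leaving out each library. The members and gene lists were chosen with earlier results of these data known. The text names, per comparison, the up to 12 members with the largest called log2 fold change, related genes as whole groups, and up to 4 called genes of each other list, with further genes added after their values were seen. A gene of the marker lists is not reported here and was left out of the sums. Python 3.11.15 with pandas 2.3.3 and matplotlib 3.10.9 was used.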

Additional observations from a re-analysis of the deposited data

Results flagged for a closer look

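Eif3j1 and Eif3j2, which encode the eIF3 subunit that dissociates most readily, stand at 0 counts in all 6 libraries, but the FPKM table lists RNA for them, which places a signal outside the main measurement. Their summed FPKM was 30.8 and 33.1 FPKM for EV, 35.6 and 38.8 FPKM for BCR-ABL1, and 60.4 and 63.6 FPKM for C-MYC. The mean was 32.0 in EV and 62.0 in C-MYC, 1.94 times as high (n = 2 each, no test). The split between both genes differed between replicates: Eif3j1 had 14.7 and 0.98 FPKM in EV. Of the 50-base windows of Eif3j2, 91.8% also occur in another gene, mostly Eif3j1, and of those of Eif3j1 36.9%. Of all genes, 7148 were at 0 counts in every library, and 111 of these had a mean FPKM above 1. Whether reads shared by both genes were left out of the counts was not tested.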

How the results depend on the processing

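Among the 11 or 12 eIF genes with the largest called changes of each comparison, 0 log2 fold changes reversed. Of all called eIF genes 1, Eif4g2 in C-MYC against EV, changed its sign (to -0.13 at the lowest). Of the former, in C-MYC against EV 168 of 168 values kept their call, in BCR-ABL1 against C-MYC 136 kept it and 32 did not, and in BCR-ABL1 against EV 83 kept it and 71 did not. The count of 11 eIF genes called in BCR-ABL1 against EV stands beside 17.0% of all genes tested. It was 5 with a mean of at least 50 counts as the filter (12.6% of all genes) and 18 with DESeq2's test (18.6%). Limma on log2 FPKM gave 3 with either pseudocount (9.91% with 1 and 9.8% with 0.1). A fit of only the 4 libraries compared gave 4 (13.7%). Leaving out single libraries gave 0 to 12. For BCR-ABL1 against C-MYC (26 genes) this range was 1 to 30 and for C-MYC against EV (36 genes) 29 to 35. For the other translation genes, the 6 called in BCR-ABL1 against EV became 2 with the mean filter, 3 with limma with either pseudocount and 3 with only the 4 libraries compared, and leaving out libraries gave 0 to 9. In BCR-ABL1 against C-MYC that range was 1 to 27 around 19, and in C-MYC against EV 20 to 30 around 29. The causes of these moves were not tested. Fits without a library rest on fewer libraries, and in them the number called over all genes moved as well. For the shares of counts, leaving out a library decides nothing, since with 2 libraries the mean always moves by less than their SD. Dividing by the counts of the filtered genes instead of all counts changed the shares little. The largest such change was from 1.44859% to 1.44933%, in replicate 2 of EV. A lone library of a condition is assumed to vary like the others. The replicate numbers are shared by all conditions, with 2 per condition. Deviations of same-numbered libraries from their condition means correlated at 0.27, 0.24 and 0.20 over all genes and at 0.41, 0.33 and 0.42 over the eIF genes. The labels do not say that a number marks a shared source, so this is a hint from the data only. With the replicate block, 18 eIF genes were called in BCR-ABL1 against EV, 37 in C-MYC against EV and 30 in BCR-ABL1 against C-MYC, and 12, 34 and 28 of the other translation genes. At this depth all 48 genes had ample counts, and 2 libraries per condition set the limit.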
